A study of Rattus norvegicus with 20 samples.

Results

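Immediate early genes were examined in white adipose tissue of male Wistar rats on mild calorie restriction (CR). The members were 10 genes picked by symbol, namely Fos, Jun, Junb, Egr1, Atf3, Btg2, Dusp1, Nr4a1, Ier2 and Myc. Of these, 9 had at least 1 probe set under their symbol on the Affymetrix rat array, with 13 probe sets in all, among 10411 genes that the array's annotation names through a probe set of 1 symbol. Btg2, which restrains cell proliferation, had no probe set under its symbol and was not analysed here. Where a gene had several probe sets, the one of highest mean signal stood for it. A signal filter was passed by 7 members (Egr1, Ier2, Nr4a1, Junb, Dusp1, Jun and Myc), among 7113 genes that passed. Fos and Atf3 did not pass and are described without a test among the others. Their mean signals were 22.0 and 5.52, the filter stood at 22.8, and the dimmest member that passed was Nr4a1 at 26.2.

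Rats were 6 weeks of age at the start and were given 5%, 10%, 20% or 30% less food than their recorded intake, or all of it as the control, for 1 month or 1 week. All groups, controls included, were fasted for 16 h before the tissue was taken. RNA of 5 rats was combined for each of the 10 groups and each pool was measured on 2 chips. A group is therefore 1 pool with no spread of its own between animals, and the 2 chips give only technical spread. Effects were tested over the 10 pools with limma, on the log2 signal averaged over both chips, and p-values were adjusted over 9520 probe sets past the filter. Exocrine pancreas genes set 2 pools of 1 week apart, the 30% CR pool with a mean log2 signal of 6.5 and the control pool with 12.1, while the other 8 pools lay between 2.29 and 2.85.

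Immediate early genes are transcribed within minutes of a stimulus, before any new protein has to be made. Growth factors, hormones, adrenergic signals, feeding and stress act through MAP kinases and protein kinase A on factors already bound at these promoters, such as serum response factor (SRF), which binds CArG boxes, and CREB, which binds cyclic AMP response elements (CREs). Many of the products are transcription factors (Fos, Jun, Junb, Egr1, Atf3, Myc and the nuclear receptor Nr4a1), while others such as the MAP kinase phosphatase Dusp1 shut the signal off again. Their transcripts are short-lived, and in fat they are known to respond to fasting, refeeding and the handling of the tissue.

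Promoter sequences of 6 members (Junb, Egr1, Btg2, Dusp1, Nr4a1 and Ier2) were present in the RefSeq table of assembly GRCr8, from 250 bases before to 50 after the start of the gene. They are shown for Egr1, Ier2 and Nr4a1, whose signals lay below both control pools in all 8 CR pools, though only just in some for Nr4a1. That of Dusp1, which switches the signal off, is shown as well. The aim is to show which of the classical elements lie next to the start. Capitals mark CArG boxes, the full CRE (TGACGTCA) and its short form (TGACG), searched on both strands, so that the short form can read CGTCA and every full CRE also holds the short form.
Egr1 promoter, chr18:26736828-26737127, plus strand: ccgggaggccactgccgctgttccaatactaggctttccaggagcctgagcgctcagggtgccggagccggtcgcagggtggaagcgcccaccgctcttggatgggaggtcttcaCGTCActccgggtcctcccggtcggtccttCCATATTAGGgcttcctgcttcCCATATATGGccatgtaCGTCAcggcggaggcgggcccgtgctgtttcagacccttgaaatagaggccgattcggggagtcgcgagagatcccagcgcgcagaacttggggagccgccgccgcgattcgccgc
Ier2 promoter, chr19:40399123-40399422, plus strand: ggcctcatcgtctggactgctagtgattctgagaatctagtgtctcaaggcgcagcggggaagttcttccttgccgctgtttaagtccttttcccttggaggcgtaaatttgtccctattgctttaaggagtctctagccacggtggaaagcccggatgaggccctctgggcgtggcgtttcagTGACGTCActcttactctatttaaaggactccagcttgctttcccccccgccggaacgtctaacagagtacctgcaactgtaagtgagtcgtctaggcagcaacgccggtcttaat
Nr4a1 promoter, chr7:134259888-134260187, plus strand: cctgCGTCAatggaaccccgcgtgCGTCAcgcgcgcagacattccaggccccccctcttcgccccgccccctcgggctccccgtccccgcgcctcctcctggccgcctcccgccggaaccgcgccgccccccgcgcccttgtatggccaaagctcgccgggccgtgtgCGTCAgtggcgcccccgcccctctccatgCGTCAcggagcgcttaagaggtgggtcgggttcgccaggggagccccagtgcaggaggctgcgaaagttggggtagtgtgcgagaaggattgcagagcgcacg
Dusp1 promoter, chr10:17184603-17184902, plus strand: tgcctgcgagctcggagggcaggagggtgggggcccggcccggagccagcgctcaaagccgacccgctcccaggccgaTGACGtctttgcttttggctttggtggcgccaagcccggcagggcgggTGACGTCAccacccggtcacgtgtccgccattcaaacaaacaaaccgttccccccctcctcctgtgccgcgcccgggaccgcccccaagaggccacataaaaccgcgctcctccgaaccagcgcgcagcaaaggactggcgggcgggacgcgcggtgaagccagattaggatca
The short form was found in all 6 promoters, against 21.2% of 33469 promoters of the same length. The full CRE was found in 3 of them (Btg2, Dusp1 and Ier2), against 1.83% of all promoters, and CArG boxes only in that of Egr1, which held 2, against 1.64% of all promoters. These are matches of letters and not measured binding sites.

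Egr1, Ier2 and Nr4a1 had lower signals in all 8 CR pools than in either control pool. Among the probe sets tested, 8.71% had this order, and 14.8% had all CR pools below the control pool of their own duration, which was also met by 3 of the 7 members tested. No tested member stood above both controls in all CR pools (9.3% of all probe sets) or above the control of its duration in all (15.1%). No member passed the adjusted threshold of 0.05 in any of the comparisons. Egr1 and Ier2 came nearest, both at an adjusted p of 0.0644 for CR minus control.

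Egr1 encodes a zinc-finger transcription factor induced by growth factors through SRF. Its signal at 1 month was 101 in the control pool and 84.4, 51.1, 41.1 and 58.0 in the 5%, 10%, 20% and 30% CR pools. At 1 week it was 113 in the control pool and 78.9, 83.8, 71.0 and 75.8 at the same levels. The lowest values were thus those of the 10% to 30% CR pools at 1 month, and no CR pool overlapped the controls. Differences of the CR pools from the control pool of their duration were −1.29 to −0.25 log2, and all 16 differences between chips of the same number were negative. The technical SD of a pool mean was 0.08 log2, which covers the chips and not the spread between animals or pools. CR minus control was −0.69 ± 0.203 log2 (SE, n = 10 pools, 95% CI −1.14 to −0.25), or 1.62-fold lower, with an unadjusted limma p of 0.00555. The slope was −0.23 ± 0.0827 log2 per 10% of CR (adjusted p = 0.095 by limma, n = 10 pools), and without both control pools it was −0.12 ± 0.0934.

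Ier2, which encodes a small nuclear protein made early after growth stimuli, was also lower in every CR pool than in both controls. Its signal at 1 month was 94.6 in the control pool and 74.2, 52.5, 60.5 and 55.6 in the CR pools from 5% to 30%. At 1 week the signal was 80.7 in the control pool and 68.4, 67.7, 67.2 and 60.4 in the CR pools. Again all 16 chip differences were negative and the groups did not overlap, but the 4 CR pools at 1 week lay close to one another. CR minus control was −0.47 ± 0.139 log2 (SE, n = 10 pools, 95% CI −0.78 to −0.17), or 1.39-fold lower. The slope was −0.16 ± 0.0559 log2 per 10% (adjusted p = 0.0895 by limma, n = 10 pools) and −0.08 ± 0.0594 without both control pools.

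Nr4a1 encodes an orphan nuclear receptor (Nur77) that is induced by cyclic AMP in several tissues. Its signal at 1 month was 39.8 in the control pool and 35.1, 22.0, 20.6 and 34.6 in the CR pools from 5% to 30%. The pools of 1 week gave 35.5 in the control pool and 20.5, 34.4, 17.4 and 15.7 in the CR pools. Low values were scattered over levels and durations, and the 10% CR pool at 1 week and the 5% and 30% CR pools at 1 month lay just under the controls. Of the 16 chip differences, 14 were negative. CR minus control was −0.66 ± 0.302 log2 (95% CI −1.32 to 0.01, adjusted p = 0.173 by limma, n = 10 pools), 1.57-fold lower.

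Junb, a member of the AP-1 family whose products pair with Fos proteins, had signals in the order of restriction at 1 month and no such order at 1 week. Its signal at 1 month was 78.7 in the control pool and 62.1, 54.2, 39.4 and 36.6 in the CR pools from 5% to 30%. At 1 week it was 61.9 in the control pool and 56.3, 63.1, 51.9 and 66.8 in the CR pools. The slope was −0.37 ± 0.0692 log2 per 10% at 1 month (95% CI −0.52 to −0.22, adjusted p = 0.0965 by limma) and 0.02 ± 0.0692 at 1 week (95% CI −0.14 to 0.17). The difference of both slopes was −0.39 ± 0.0979 (95% CI −0.61 to −0.17). Its p was 0.00255 before and 0.999 after adjustment by limma, where 0 of 9520 probe sets passed and 282 had an unadjusted p under 0.05. CR minus control over both durations was −0.40 ± 0.212 log2 (adjusted p = 0.228 by limma). It was −0.06 ± 0.278 without the control pool at 1 month and −0.74 ± 0.277 without that at 1 week.

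Dusp1, the phosphatase that inactivates p38, JNK and ERK kinases, had a signal at 1 month of 500 in the control pool and 400, 401, 504 and 406 in the CR pools from 5% to 30%. At 1 week the signal was 464 in the control pool and 363, 413, 328 and 323 in the CR pools. Only the 20% CR pool at 1 month stood above the controls. CR minus control was −0.31 ± 0.116 log2 (95% CI −0.56 to −0.06, adjusted p = 0.112 by limma), and −0.35 ± 0.17 with the second probe set of the gene (adjusted p = 0.192).

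Jun and Myc had CR pools on both sides of the controls. Jun, the main partner of Fos in AP-1, had a signal at 1 month of 99.6 in the control pool and 117, 100, 102 and 98.5 in the CR pools. The pools of 1 week gave 86.6 in the control pool and 110, 136, 78.4 and 74.8 in the CR pools, where the 2 control chips lay far apart. CR minus control was 0.11 ± 0.189 log2 (95% CI −0.30 to 0.53), and 0.10 and 0.00 with the other 2 probe sets. Myc, which drives growth and division, had a signal at 1 month of 53.3 in the control pool and 75.6, 58.3, 61.6 and 57.6 in the CR pools. At 1 week it was 66.8 in the control pool and 54.1, 46.0, 85.7 and 54.8 in the CR pools, and CR minus control was 0.02 ± 0.205 log2 (95% CI −0.43 to 0.47).

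Fos and Atf3, under the filter, had mostly low signals in CR too. Fos, the classical partner of Jun, had a signal at 1 month of 30.7 in the control pool and 13.4, 37.9, 17.8 and 13.3 in the CR pools. The pools of 1 week gave 36.4 in the control pool and 13.3, 26.7, 21.1 and 26.0 in the CR pools, so that 7 of 8 CR pools lay below both controls. In a limma fit with no filter on low signals, CR minus control of Fos was −0.76 ± 0.386 log2 (adjusted p = 0.296), while its second, dimmer probe set gave 0.14 ± 0.44. Atf3, a stress-induced repressor related to CREB, had a signal at 1 month of 8.42 in the control pool and 4.18, 2.31, 3.43 and 6.89 in the CR pools. At 1 week the signal was 11.9 in the control pool and 7.86, 4.53, 3.89 and 8.20 in the CR pools, all 8 CR pools being below both controls. Of the 16 chip differences of Atf3, 13 were negative. The share of 8.71% with this order of pools was counted among tested probe sets only and does not cover Atf3. The technical SD of a pool mean of Atf3 was 0.758 log2, and in the limma fit with no filter CR minus control was −1.08 ± 0.454 log2 (adjusted p = 0.21).

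**Figure D1:**
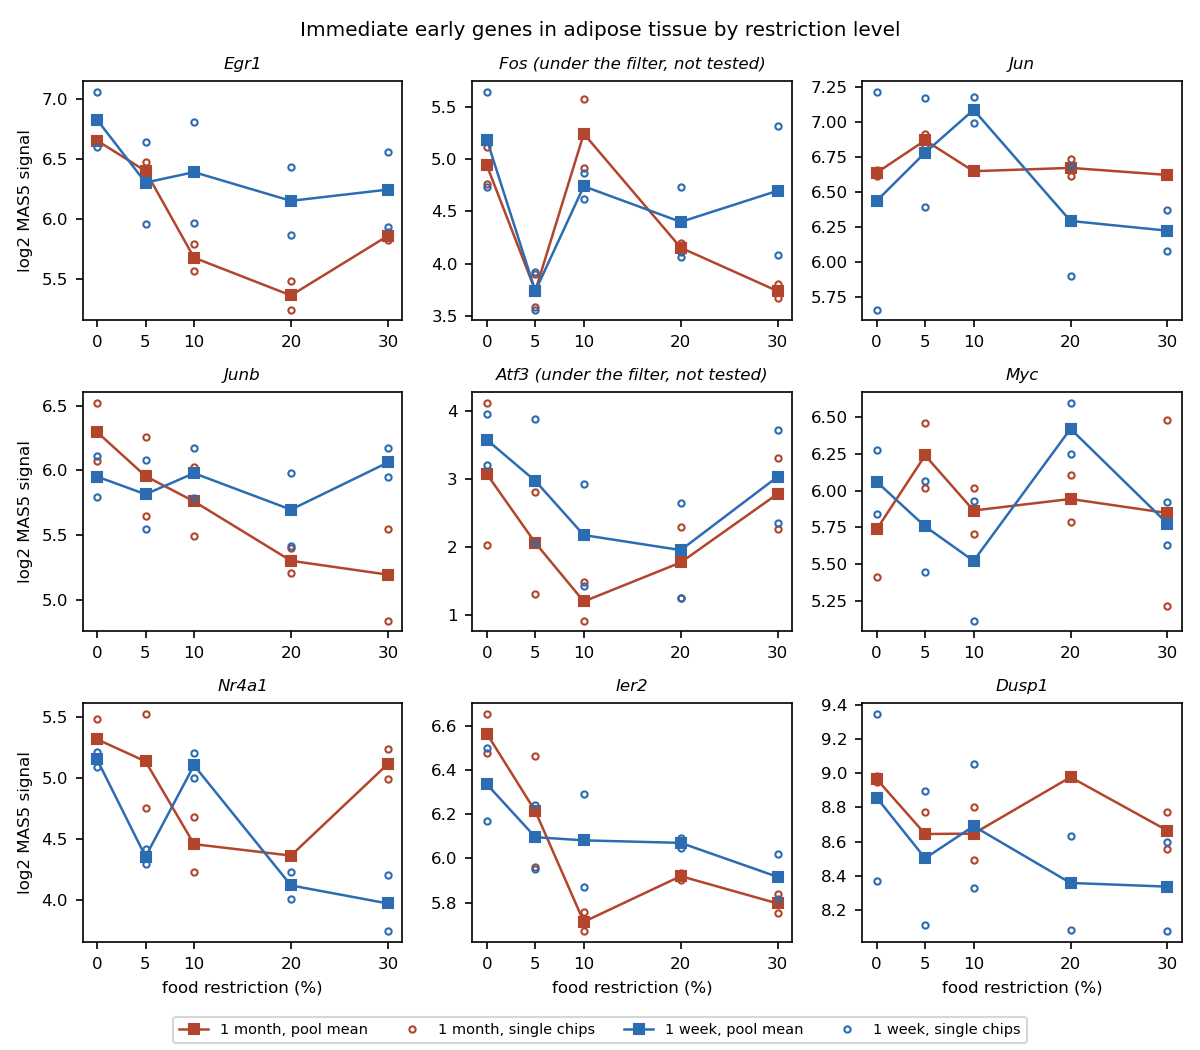
Log2 MAS5 signal of 9 immediate early genes against food restriction in percent, with squares for the pool means (lines join the pools of 1 duration) and open circles for the single chips, 1 month in red and 1 week in blue; vertical scales differ between panels. Egr1, Ier2, Nr4a1 and Atf3 (under the filter, not tested) lie below both control pools in all 8 CR pools, and Jun and Myc do not. The first and second chips at 1 week, which were scaled to different means, lie apart.

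Over the 7 members tested, the median of CR minus control was −0.40 log2, against −0.03 for all 9520 probe sets tested. Negative values were found for 5 of the 7, against 53.2% of all. The median slope was −0.16 log2 per 10%, against −0.01 for all. In CR minus control, 0 of 7 members passed the adjusted threshold, where 5.93% of all probe sets did (4.34% higher and 1.6% lower), and 3 members (Egr1, Ier2 and Dusp1) had an unadjusted limma p under 0.05, as did 2807 of all. In the slope over both durations, 0 of 7 passed, where 9.4% of all did (5.71% rising and 3.69% falling), and 3 had an unadjusted limma p under 0.05, as did 2869 of all. The slopes taken for each duration called 0 of 7 members too, against 0.126% of all at 1 month (0.0945% rising, 0.0315% falling) and 0.294% at 1 week (0.221% rising, 0.0735% falling), with 3 members at 1 month and 2 at 1 week at an unadjusted limma p under 0.05, as were 1256 and 1918 of all.

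**Figure D2:**
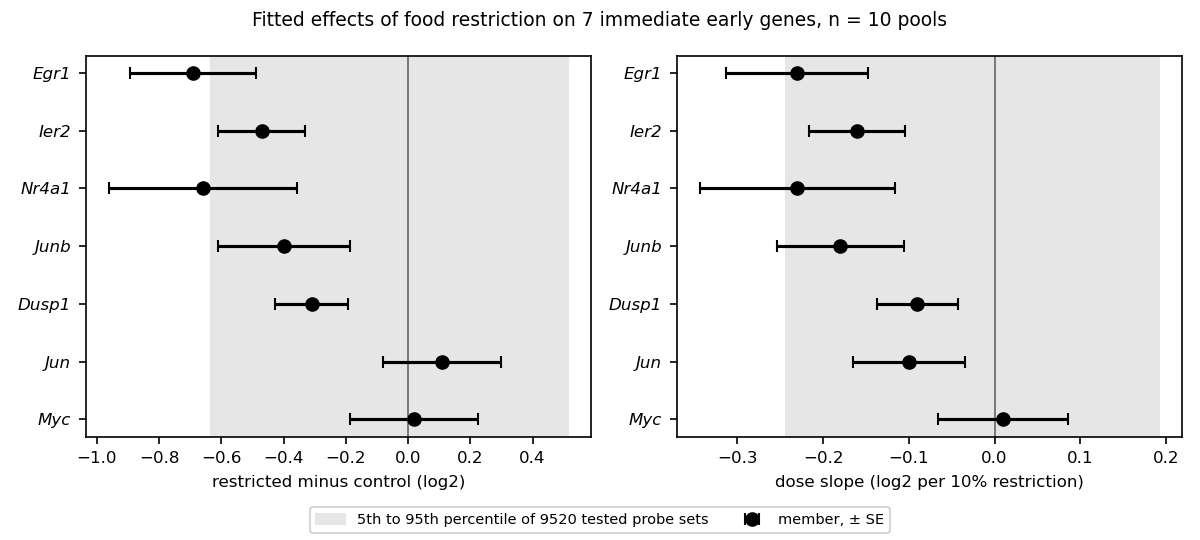
Fitted CR minus control (left, log2) and slope per 10% of restriction (right, log2) of the 7 members tested, as points with SE over 10 pools, on the range from the 5th to the 95th percentile of all 9520 probe sets tested (grey, −0.63 to 0.51 on the left and −0.24 to 0.19 on the right). Egr1 at −0.69 and Nr4a1 at −0.66 lie outside that range on the left, and the other 5 members lie inside it.

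No member differed between 1 month and 1 week past the threshold. For 1 month minus 1 week, 0 of 7 members passed, where 4.77% of all did (3.21% higher, 1.55% lower), and Egr1 (−0.39 ± 0.135 log2, adjusted p = 0.124 by limma) and Dusp1 (0.23 ± 0.094, adjusted p = 0.183 by limma) had an unadjusted p under 0.05, as did 2205 of all 9520. The chips of each duration were scaled apart, so this comparison rests on the scale. All rats started at the same age, so those of 1 month were also older when sampled. Age and time on the diet cannot be told apart here. The pancreas markers were found in pools of 1 week only. The slopes at 1 month and 1 week did not differ past the adjusted threshold for any member.

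Single CR pools were also set against the control pool of their duration, counting a gene where both chip differences had 1 sign and the pool means were 1.5-fold or more apart. This count carries no test. Members counted as lower were Egr1, Ier2 and Nr4a1 at 10% CR for 1 month (3 of 7, against 13.7% of all probe sets tested), with Junb in addition at 20% (4 of 7, against 10.2%), and Egr1, Ier2 and Junb at 30% (3 of 7, against 8.07%). At 1 week they were Nr4a1 at 5% (4.35% of all), Egr1 and Nr4a1 at 20% (8.73% of all) and Nr4a1 at 30% (11.8% of all). No member was counted at 5% CR for 1 month (3.33% of all) or at 10% CR for 1 week (7.21% of all). None was counted as higher in any CR pool, where from 5% to 30% CR 2.49%, 6.31%, 6.31% and 5.44% of all were at 1 month and 4.61%, 7.27%, 7.1% and 9.38% at 1 week. The largest differences were −1.29 log2 for Egr1 at 20% CR for 1 month and −1.18 log2 for Nr4a1 at 30% CR for 1 week. With 2-fold in place of 1.5-fold, the 14 counts over all pools became 4.

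Other immediate early genes were taken from 2 lists. Of 24 further transcription factors, 23 were on the array under their symbol and 12 passed the filter. By limma 0 of these 12 were called in CR minus control or in the slope, with 3 at an unadjusted p under 0.05 in each. Among all 9520 probe sets tested, 2807 and 2869 had an unadjusted limma p under 0.05 in these comparisons. Irf1, a factor of interferon responses, had the steepest slope (−0.23 ± 0.0768 log2 per 10%, adjusted p = 0.0775), followed by Crem, a relative of CREB (0.20 ± 0.171), and Ier5 (−0.17 ± 0.092). Ier5 was the only one of the 12 with all 8 CR pools below both controls (8.33%, against 8.71% of all probe sets tested). The median of CR minus control in this list was −0.15 log2.

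Of 31 further enzymes, signal regulators and secreted proteins, 28 were on the array and 20 passed the filter. Dusp6, a phosphatase that inactivates ERK, fell in CR. Its log2 signal at 1 month was 7.98 in the control pool and 7.82, 7.49, 7.32 and 7.39 in the CR pools from 5% to 30%, and at 1 week it was 8.06 in the control pool and 7.30, 7.61, 7.16 and 7.33 in the CR pools. No CR pool overlapped the controls, the difference was −0.59 ± 0.141 log2 (adjusted p = 0.036 by limma, n = 10 pools), and the call was lost without any 1 of 7 of the 10 pools. Dusp6 and Btg1 were the 2 of these 20 genes with all 8 CR pools below both controls (10%, against 8.71% of all probe sets tested). The 19 genes other than Dusp6 did not pass. The list thus held 1 call among 20 genes in CR minus control, where 5.93% of all probe sets tested passed (1.6% lower). Dusp2 had the steepest slope of the list (−0.71, adjusted p = 0.152 by limma). Its lowest log2 signals were in the pools that were low in lymphocyte markers. They were 2.67 at 20% and 3.47 at 10% CR for 1 month and 3.42 at 30% CR for 1 week. The control pools had 6.51 at 1 month and 6.20 at 1 week.

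**Figure D3:**
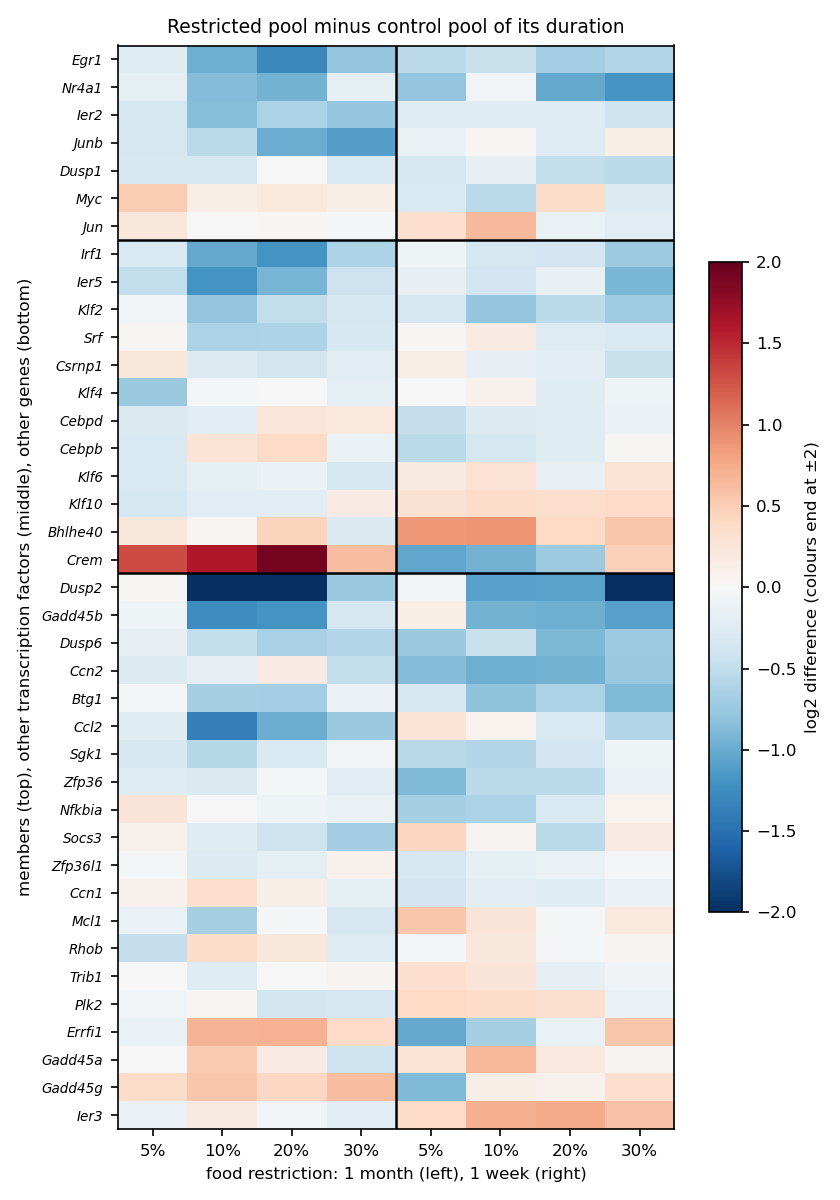
Log2 difference of each CR pool from the control pool of its duration, in columns by restriction level at 1 month (left) and 1 week (right), for the members, other immediate early transcription factors and other immediate early genes that passed the filter, with blue for lower and red for higher in CR. Egr1 and Dusp6 are blue in all 8 columns, Crem is red at 1 month and mostly blue at 1 week, and Dusp2 has the deepest blue at 10% and 20% CR for 1 month and 30% CR for 1 week.

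Of 27 genes that carry signals to immediate early genes, 16 were on the array and 14 passed the filter. Mrtfa, a coactivator of SRF that responds to actin, fell with the level of CR. Its log2 signal at 1 month was 6.16 in the control pool and 6.28, 5.06, 5.40 and 4.55 in the CR pools, and at 1 week it was 6.28 in the control pool and 6.07, 5.72, 5.62 and 5.53 in the CR pools. The slope was −0.38 ± 0.0883 log2 per 10% (adjusted p = 0.0247 by limma, n = 10 pools), 2.21-fold at 30%, and it did not pass without either control pool, either 30% CR pool or the first chips. Mapk14, the p38 alpha kinase, fell in CR by 0.36 ± 0.0892 log2 (adjusted p = 0.04 by limma), and Pdgfrb, a receptor of platelet-derived growth factor, rose by 0.66 ± 0.166 log2 (adjusted p = 0.0413 by limma). Both lost the call without almost any 1 pool, Mapk14 in 8 of the 10 cases and Pdgfrb in 8. No alternative tried turned the sign of these 3 values. The other 11 genes of the list passed in neither comparison. In the slope the list thus held 1 call among 14 genes, where 9.4% of all probe sets tested passed. In CR minus control it held 1 lower and 1 higher, where 1.6% and 4.34% of all did.

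The 8 genes whose pattern over the 10 pools was most like the mean of the tested members, out of 7106 genes and with each duration centred, were Bid (r = 0.979), Myl12b (0.967), Stat2 and Taf5 (0.959 each), Stat3 (0.957), Sharpin (0.956), and Slc44a2 and Rangap1 (0.953 each). The points are 10 pools that share the control pool of their duration, so the correlations are descriptions. All 8 were chosen by this likeness over the same pools, so their falling slopes follow from the choice and are no separate result. The slope was −0.33 log2 per 10% for Bid, a trigger of apoptosis, and −0.15 for Stat3, the transcription factor of cytokine signals. Those of the others lay between −0.23 (Slc44a2 and Rangap1) and −0.12 (Sharpin).

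Macrophage and lymphocyte markers were mostly lower in CR pools and adipocyte markers mostly higher. Endothelial, mesothelial and smooth muscle lists held values of both signs. Of 11 adipocyte markers, 10 had a positive CR minus control (median 0.29 log2). Limma called 5 higher and 0 lower, where 4.34% and 1.6% of all probe sets tested were. In bulk tissue, fewer cells of a type and less RNA per cell cannot be told apart. The mean log2 signal of 11 macrophage markers was 7.89 to 8.25 in the CR pools, against 8.86 and 8.35 in the control pools at 1 month and 1 week. Of these markers, 7 had all 8 CR pools below both controls (63.6%, against 8.71% of all probe sets tested). Aif1, Lyz2, Tyrobp, Ctss and Fcer1g fell in CR (5 of 11 by limma, where 1.6% of all were called lower). Cd14, also in this list, had a CR minus control of 0.16 ± 0.166 log2 and rose with the level of CR (slope 0.16 ± 0.0432 log2 per 10%, adjusted p = 0.0422 by limma). Of 5 mesothelial markers 4 had a positive CR minus control and none passed. Among 8 endothelial markers 3 had a positive one, of which Gpihbp1 passed (0.94 ± 0.198 log2, adjusted p = 0.0244 by limma). Plvap went the other way, with a CR minus control of −1.16 log2 (adjusted p = 0.0563 by limma). Its slope was −0.53 log2 per 10% (adjusted p = 0.00565 by limma), the steepest of the list. Plvap and Cldn5 had all 8 CR pools below both controls (25%, against 8.71% of all probe sets tested). The mean of 8 lymphocyte markers was 3.85 to 7.45 in the CR pools, against 7.55 and 7.57 in the control pools, with its lowest values at 30% CR for 1 week and at 10% and 20% CR for 1 month. All 8 had a negative CR minus control, with a median of −2.03 log2, and limma called 0 of them in that comparison. There 5 had an unadjusted limma p under 0.05, as did 2807 of all 9520 probe sets tested. In the slope over both durations limma called 1 of the 8 lower, where 3.69% of all were. With the macrophage mean as a further term, CR minus control was −0.10 ± 0.33 log2 for Egr1, −0.08 ± 0.228 for Ier2 and 0.21 ± 0.493 for Nr4a1, and with the lymphocyte mean it was −0.40 ± 0.186 for Egr1, −0.32 ± 0.149 for Ier2 and −0.26 ± 0.297 for Nr4a1. The part of these cells in the result was not tested.

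The label of the tissue was met by its defining markers, with a mean log2 signal over 11 adipocyte genes of 10.0 to 10.4 in the CR pools, against 9.83 and 9.69 in the control pools. Without the 2 pools that held pancreas markers, CR minus control was −0.83 ± 0.311 log2 for Egr1, −0.65 ± 0.195 for Ier2, −0.55 ± 0.434 for Nr4a1 and −0.74 ± 0.283 for Junb. These values set the 4 CR pools at 1 month against the 1 control pool left, assumed to vary like the others. The difference of the 3′ and 5′ probe sets of beta-actin, a sign of RNA quality, was 0.627 to 0.865 log2 in the CR pools, against 0.602 and 0.590 in the control pools. The same difference was 0.0705 to 0.224 for GAPDH in the CR pools, against 0.0752 and 0.141 in the control pools, and 0.106 to 0.373 for hexokinase in the CR pools, against 0.593 and 0.820 in the control pools, so the 3 did not point one way. With the beta-actin difference as a further term, CR minus control was −0.60 ± 0.308 log2 for Egr1, −0.26 ± 0.192 for Ier2, −0.78 ± 0.458 for Nr4a1, −0.25 ± 0.175 for Dusp1 and 0.06 ± 0.256 for Junb, and its part in the result was not tested.

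**Figure D4:**
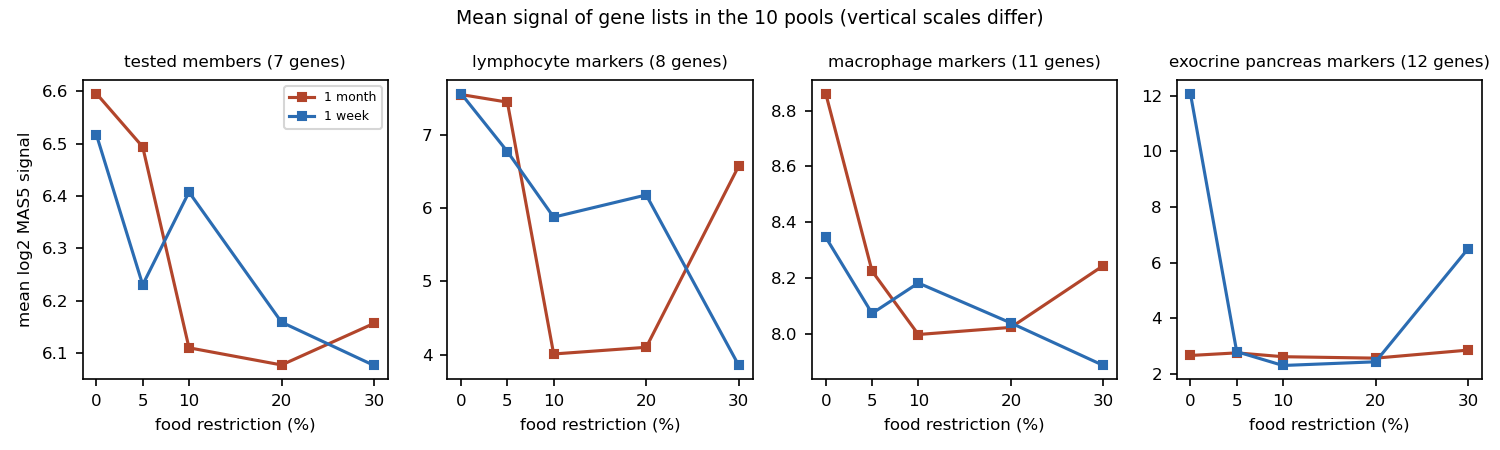
Mean log2 MAS5 signal (vertical, scales differ) of the 7 tested members and of the lymphocyte, macrophage and exocrine pancreas lists at each level of restriction in percent (horizontal), each square being 1 pool, 1 month in red and 1 week in blue. The members and the macrophage markers are highest in the control pools, and the pancreas markers reach 12.1 in the control pool of 1 week.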

How the data were processed

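The authors deposited MAS5 signals of 1-colour Affymetrix arrays, which are intensity values on a linear scale, for 20 chips of 10 pools. MAS5 is named in the submitters' processing notes. Trimmed mean signals were alike among the 5 chips of 1 number at 1 duration and differed between these sets (97.7 and 97.5 at 1 month, 77.2 and 111 at 1 week), so the sets were scaled apart. Signals under 1 were set to 1, 57 control probe sets were left out, log2 was taken and the 2 chips of a pool, which agreed at r = 0.971 to 0.982, were averaged. The dimmest 40% by mean log2 signal were not tested, which left 9520 of 15866 probe sets. The platform annotation gave 1 symbol to 12783, several to 312 and none to 2771. Those with several stayed unnamed.

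limma 3.58.1 in R 4.3.3 (lmFit, eBayes with an intensity trend, two-sided, Benjamini-Hochberg, threshold 0.05) gave the slope on restriction with duration as a term, the slope at each duration and their difference, CR minus control with duration as a term, and 1 month minus 1 week with level as a factor. The steps were tested on simulated data. The members and lists were chosen with earlier results of these data known. Named genes are every member, genes of the 3 further lists past the threshold in the slope or CR minus control (or the 3 of largest slope), and the 8 most alike in pattern. Alternatives covered scaling, filter, floor, chips or pools left out, the replicate number as a block, and marker levels as terms. Except in the fit over all chips, p-values measure the spread of the pools around each fit. With 1 pool a group, this spread also holds any effect of level or duration that the fit leaves out. The number of pools, 10 in all with 2 controls, limits the precision. Promoters are RefSeq's, assembly GRCr8.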

Additional observations from a re-analysis of the deposited data

How the results depend on the processing

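The slopes and differences of Egr1, Ier2 and Dusp1 kept a negative sign under every alternative run. Over these, CR minus control lay between −0.83 and −0.10 for Egr1 and between −0.65 and −0.08 for Ier2, with adjusted p from 0.00764 to 0.982 and from 0.0175 to 0.979. With 1 pool left out, it lay between −0.83 and −0.55 for Egr1, between −0.65 and −0.29 for Ier2 (−0.29 without the control pool at 1 month) and between −0.74 and −0.06 for Junb. The count of members past the threshold, 0 in each main comparison, changed as follows. For CR minus control it was 1 with quantile normalization (Egr1), 0 to 1 with chips of 1 number left out (Egr1 without the second chips) and 0 to 2 with 1 pool left out (Egr1 and Ier2 without the 5% pool at 1 month). For the slope it was 0 to 2 with 1 pool left out (Egr1 and Ier2 without the 10% pool at 1 month, Nr4a1 without the 30% pool at 1 month). For the slope at 1 month it was 0 to 1 (Junb without the 10% pool), and for 1 month minus 1 week it was 1 without the first chips (Egr1) and 1 without the second (Dusp1).

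The replicate numbers name chip sets and pair no animals. Deviations of chips with the same number correlated at −0.0866 to 0.225 at 1 month and 0.0158 to 0.177 at 1 week. A limma fit over all chips took the replicate number as a block and the pool as a random block. It called 2 members in CR minus control (Egr1, adjusted p = 0.00832, and Ier2, adjusted p = 0.0205). It also called 2 in the slope (Egr1 and Ier2) and 2 in 1 month minus 1 week (Dusp1 and Jun). Its p-values lean on chips of the same pool, which give only technical spread and add no pools. They are therefore not comparable with those of the fits over pools. Among all 9520 probe sets tested, calls rose from 565 to 1695 in CR minus control and from 895 to 1729 in the slope. In 1 month minus 1 week they rose from 454 to 4751.

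Counting single pools at 2-fold gave 4 lower in place of 14. Signs turned for Jun (CR minus control −0.14 to 0.37 with chips left out, the lower value without the first chips), for Junb (0.06 with the beta-actin term), for Nr4a1 (0.21 with the macrophage term) and for Myc. The slope of Myc was −0.08 to 0.09 with chips left out, −0.04 to 0.04 with 1 pool left out and −0.03 with the macrophage term. CR minus control of Myc was −0.11 to 0.15 with chips left out, −0.19 to 0.24 with 1 pool left out and −0.24 with the macrophage term. Among genes of the other lists, the call was lost under 14 of 24 alternatives for Dusp6, 10 of 25 for Mrtfa, 15 of 24 for Mapk14 and 15 of 23 for Pdgfrb. The causes were not tested. Centring each chip on its median moved the median CR minus control of all probe sets tested from −0.026 to 0.091, and values were then −0.57 for Egr1, −0.36 for Ier2, −0.54 for Nr4a1 and −0.19 for Dusp1. The fits with the macrophage or beta-actin term or without both control pools were chosen after seeing the data.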
